A study of Homo sapiens with 16 samples.

Results

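The 6 cancer genes RB1, SMAD4, CDKN2A, CDKN2B, NF2 and BRAF were followed through RNA sequencing of MDA-MB-231 and MDA-MB-468, 2 established human breast cancer cell lines. They were picked by name, as known drivers that are mutated or deleted in 1 of these lines, and are 6 of the 18332 genes of the deposited table. Each line was kept for 48 hours in 5 mM glucose (low glucose) or 25 mM glucose (high glucose), with 4 samples in each of the 4 groups and 16 in all. All cells were first conditioned in low glucose and then held without serum. For routine growth MDA-MB-231 was kept in DMEM and MDA-MB-468 in RPMI, so the line and this medium cannot be told apart in any comparison of lines. That medium was removed before the 48 hours. The paper lists DMEM as its low and high glucose media but does not name the medium of the 48 hours for each line. Each line is 1 cell population, and the labels do not say whether the 4 samples of a group came from separate cultures, so p-values measure the spread between these samples, which may be technical.

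RB1 encodes the retinoblastoma protein, which holds E2F transcription factors inactive until cyclin D kinases phosphorylate it. CDKN2A and CDKN2B lie side by side and encode p16INK4A and p15INK4B, which inhibit those kinases, and CDKN2A also encodes ARF, which binds and inhibits the ubiquitin ligase MDM2. SMAD4 is the shared partner of the receptor-activated SMADs in TGF-beta and BMP signaling. NF2 encodes merlin, a membrane-cytoskeleton linker that acts through the Hippo kinases to restrain YAP and TAZ. BRAF is the kinase that passes a RAS signal on to MEK and ERK. RB1, SMAD4, CDKN2A, CDKN2B and NF2 are tumor suppressors, and BRAF is an oncogene.

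Libraries held 14094597 to 24425916 reads assigned to genes. Values are normalized read counts unless another scale is named, with mean ± SD over n = 4 samples. CPM divide by the library total and normalized counts by the size factor, so every gene stands higher in MDA-MB-468 relative to MDA-MB-231 on the CPM scale, by 0.14 on the log2 scale in low glucose and 0.09 in high glucose. Log2 differences between lines are on the scale of normalized counts. The labels of the lines were checked against markers. Of the 6 MDA-MB-468 markers all 6 were higher in that line in low glucose, E-cadherin (CDH1) among them at a log2 difference of 8.28. Of the 5 MDA-MB-231 markers 4 were lower in MDA-MB-468, with vimentin (VIM) at -12.09, while CD44 was higher in MDA-MB-468 by 0.50. Of the markers of blood and stromal cells, PTPRC was between 0.194 and 0.720 CPM (counts per library total) in the group means and COL1A1 between 16.2 and 19.5 CPM. PECAM1 was not matched. ESR1, the estrogen receptor that the labels call negative, was at 3.68 CPM in low glucose MDA-MB-468 and 0.0753 CPM in low glucose MDA-MB-231.

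CDKN2A and CDKN2B were transcribed in MDA-MB-468 and gave no read at all in MDA-MB-231. In MDA-MB-231, CDKN2A had 0 reads in each of the 8 libraries, and so did CDKN2B. A count of 0 allows up to 3 reads, which is 0.123 to 0.192 CPM in these libraries (counting error only). In low glucose MDA-MB-468, CDKN2A had 1009.9, 946.7, 989.0 and 1002.4 normalized counts (987 ± 28.2). In high glucose MDA-MB-468 it had 1180.2, 1260.6, 1315.1 and 1272.0 (1257 ± 56.3). The lowest high glucose sample stood above the highest low glucose sample.

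CDKN2B in low glucose MDA-MB-468 had 882.5, 920.2, 919.0 and 896.4 normalized counts (904.5 ± 18.3). In high glucose it had 1019.8, 1014.8, 1118.2 and 1060.4 (1053 ± 47.8), again with no overlap. Of the genes tested in MDA-MB-468, 42.5% had glucose groups that did not overlap. Set against the floor of 3 reads per MDA-MB-231 library, CDKN2A was at least 378-fold higher in MDA-MB-468 in low glucose and at least 455-fold higher in high glucose. CDKN2B was at least 346-fold and 381-fold higher.

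**Figure D1:**
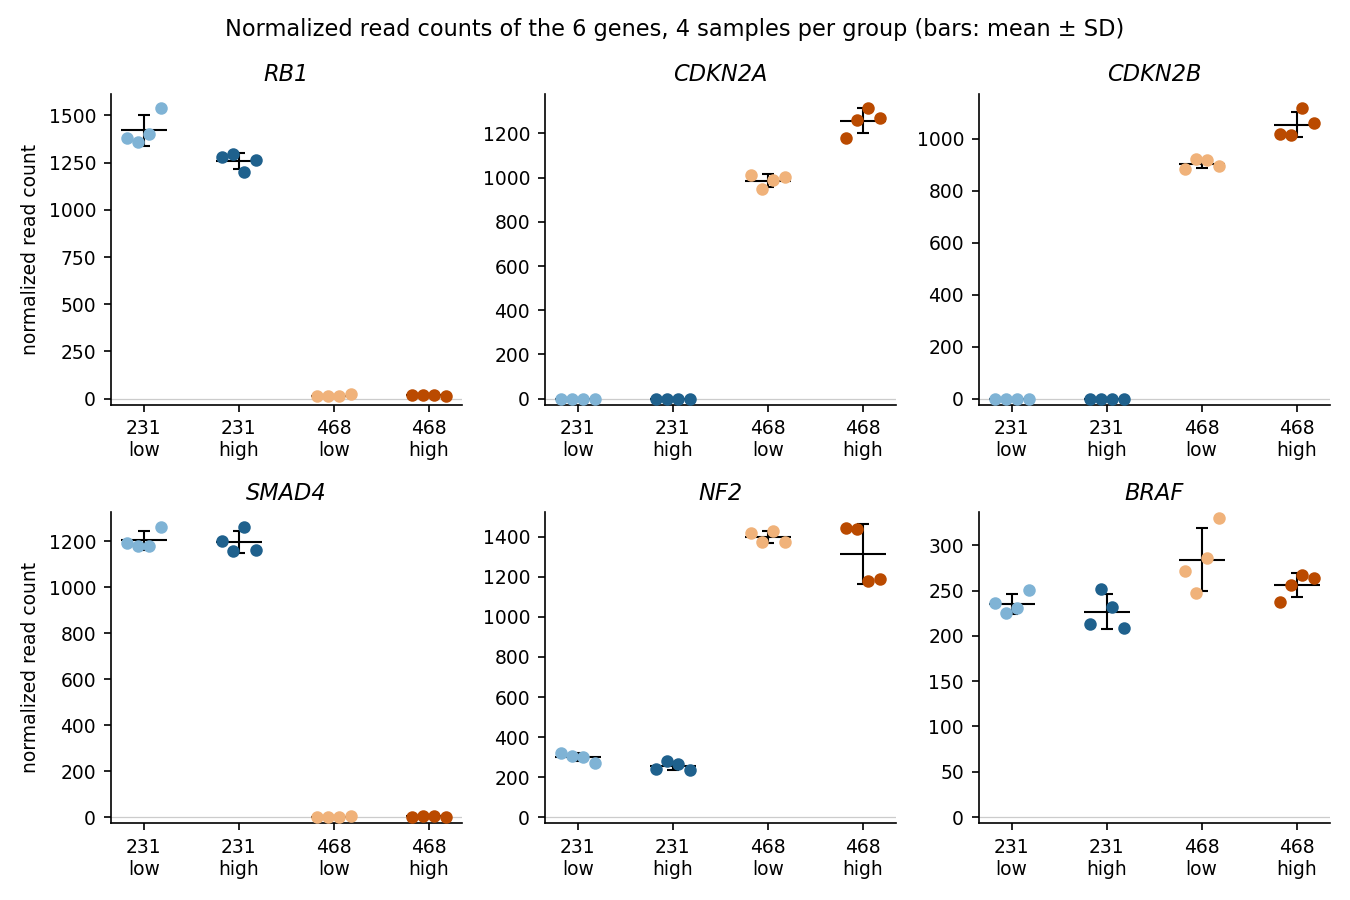
Normalized read counts of the 6 genes (y axis, linear) in the 4 groups (x axis, line and glucose), with points for the 4 samples and bars for mean ± SD. CDKN2A and CDKN2B are at 0 in all 8 MDA-MB-231 samples, RB1 and SMAD4 are close to 0 in all 8 MDA-MB-468 samples, and NF2 is higher in MDA-MB-468.

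The INK4 genes were upregulated by high glucose in MDA-MB-468. CDKN2A rose by 0.35 on the log2 scale (SE 0.042, 1.27-fold, limma with Benjamini-Hochberg adjustment, adjusted p = 4.042e-06). CDKN2B rose by 0.22 (SE 0.042, 1.16-fold, limma with Benjamini-Hochberg adjustment, adjusted p = 0.0004298). They were the 2 of the 5 tested genes of this group called in MDA-MB-468, where 47.6% of all 15757 genes tested were called, 24.9% as higher and 22.7% as lower. A share of 2 in 5 is near that background. The CDKN2A difference was called under all 20 alternatives, with a log2 fold change of 0.30 to 0.38. CDKN2B lost its call in the fit on all 16 samples, where the adjusted p was 0.1277. No glucose difference can be seen in MDA-MB-231, where both genes were at 0 reads.

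The 95% CIs of the log2 rises overlapped, at 0.26 to 0.44 for CDKN2A and 0.13 to 0.31 for CDKN2B. Within libraries the ratio of the pair was higher in high glucose. The 4 low glucose MDA-MB-468 libraries held 1.14, 1.03, 1.08 and 1.12 reads of CDKN2A per read of CDKN2B (1.09 ± 0.0505), and the 4 high glucose libraries held 1.16, 1.24, 1.18 and 1.20 (1.19 ± 0.0366). No high glucose ratio fell within the low glucose range, and the nearest samples of the 2 groups were 1.14 and 1.16. The two-sided exact permutation test over 70 splits gave p = 0.0286, the smallest it can give with n = 4 a group, and 0.0429 after adjustment over the 3 such tests made. These tests were chosen after the values had been seen, so the p-values are descriptive. A ratio within a library does not depend on the size factor.

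**Figure D2:**
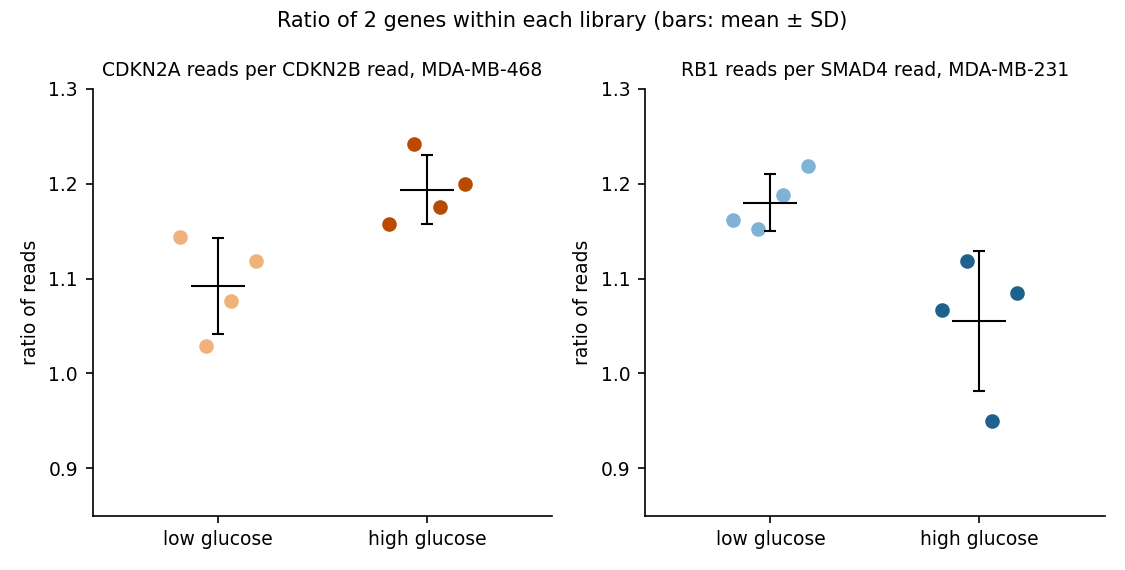
Reads of CDKN2A per read of CDKN2B in MDA-MB-468 (left) and of RB1 per read of SMAD4 in MDA-MB-231 (right) in each library (y axis, ratio of reads, not starting at 0), with bars for mean ± SD over 4 samples. The left ratio is 1.09 in low and 1.19 in high glucose, and the right ratio is 1.18 in low and 1.06 in high glucose.

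The INK4 genes descend from a duplication and still share sequence, which bears on how reads could be divided between them. On GRCh37 with the GENCODE annotation, CDKN2A spans chr9:21967751-21995300 and CDKN2B chr9:22002902-22009304, both on the minus strand. Of the 929 runs of 50 bases in the canonical CDKN2A transcript, 31 also occur in another gene, and all 31 are in CDKN2B, where they are 0.815% of its runs. Reads from those runs could be assigned to either gene. CDKN2A has 2 start sites in RefSeq, the farther one for the ARF transcript and the nearer one for the p16INK4A transcript, and the gene-level counts join them. The 250 bases before each start and before the start of CDKN2B are shown because the pair rose together in MDA-MB-468, with the GC box GGGCGG (either strand, the letters read by SP1-type factors) in capitals. The coordinates of these windows are on GRCh38.p14, all minus strand, and are chr9:21995325-21995574 for ARF, chr9:21974858-21975107 for p16INK4A and chr9:22009306-22009555 for CDKN2B.

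CDKN2A, ARF start: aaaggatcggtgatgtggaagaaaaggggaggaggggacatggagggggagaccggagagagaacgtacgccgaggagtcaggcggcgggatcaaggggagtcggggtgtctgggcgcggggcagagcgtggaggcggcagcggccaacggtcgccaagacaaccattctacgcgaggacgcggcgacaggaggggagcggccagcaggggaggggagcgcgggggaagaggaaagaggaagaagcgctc
CDKN2A, p16INK4A start: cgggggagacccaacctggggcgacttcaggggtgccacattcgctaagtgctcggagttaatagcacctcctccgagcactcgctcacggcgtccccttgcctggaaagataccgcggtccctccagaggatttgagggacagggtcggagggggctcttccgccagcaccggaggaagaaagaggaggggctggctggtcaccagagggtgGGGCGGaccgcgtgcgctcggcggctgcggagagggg
CDKN2B start: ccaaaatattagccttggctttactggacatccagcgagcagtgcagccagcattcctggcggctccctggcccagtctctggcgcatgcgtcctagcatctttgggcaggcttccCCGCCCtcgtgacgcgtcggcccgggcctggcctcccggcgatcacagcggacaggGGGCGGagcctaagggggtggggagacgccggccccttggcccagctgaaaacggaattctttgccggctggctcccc

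The p16INK4A window held 1 GC box, the CDKN2B window 2 and the ARF window 0. GC boxes are common letters, and 42.6% of all 35116 RefSeq promoter windows of this length held at least 1. The E2F core GCGGGAA (either strand) was in none of the 3 windows, against 5.52% of all windows. GC content was 66.8%, 66.8% and 66.4% in the order printed.

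The zero level in MDA-MB-231 extended over the neighbors of CDKN2A and CDKN2B. Within 1 Mb of CDKN2A the annotation has 22 other coding genes, and the 16 outside the table are all interferon genes. Of the 6 in the table, 5 were at 0 reads in all 8 MDA-MB-231 libraries while transcribed in MDA-MB-468. Over the genome, 4.88% of 14560 coding genes were at 3 mean reads or fewer in both MDA-MB-231 groups and at 0.5 CPM or more in both MDA-MB-468 groups. The 5 are CDKN2B and the 4 described next.

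MTAP, the methionine salvage enzyme 30.1 kb from CDKN2A, was at 0 CPM in MDA-MB-231 and at 66.9 CPM in low glucose and 57.7 CPM in high glucose MDA-MB-468. KLHL9, a ubiquitin ligase adaptor 632.3 kb away, was at 0 against 26.1 and 31.0 CPM, and HACD4, a fatty acid elongation enzyme 936.1 kb away, at 0 against 2.81 and 2.91 CPM. DMRTA1, on the CDKN2B side at 451.5 kb, was at 0 against 1.42 and 1.58 CPM. The genes at 0 reads thus ran without a break through every coding gene of the table from HACD4 to DMRTA1. The sixth gene in the window, FOCAD, was not at 0 but low, with 1.71 and 1.79 CPM in MDA-MB-231 against 43.9 and 41.3 CPM in MDA-MB-468.

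Beyond 1 Mb, in a look made after these values were seen, MLLT3 at 1.35 Mb was transcribed in both lines (13.7 CPM in low glucose MDA-MB-231, 22.9 CPM in low glucose MDA-MB-468). On the other side, ELAVL2 at 1.69 Mb had 1 read in the 8 MDA-MB-231 libraries together and 5.80 CPM in low glucose MDA-MB-468, and TUSC1 at 3.68 Mb had 8.95 and 8.0 CPM. The antisense RNA CDKN2B-AS1, which overlaps both INK4 genes on the other strand, was also at 0 reads in MDA-MB-231 and at 2.64 CPM in low glucose MDA-MB-468. It fell by 0.51 on the log2 scale in high glucose MDA-MB-468 (limma with Benjamini-Hochberg adjustment, adjusted p = 0.04561), while the 2 genes it overlaps rose. Use of strand in the counting is not given in the sources used here, so reads of a gene and its antisense partner may not have been separated. The neighbors did not share a glucose direction in MDA-MB-468: KLHL9 rose by 0.28 on the log2 scale and MTAP fell by 0.18 (limma adjusted p = 0.0005129 and 0.001673). These are RNA levels, and DNA copy number was not measured in these files.

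**Figure D3:**
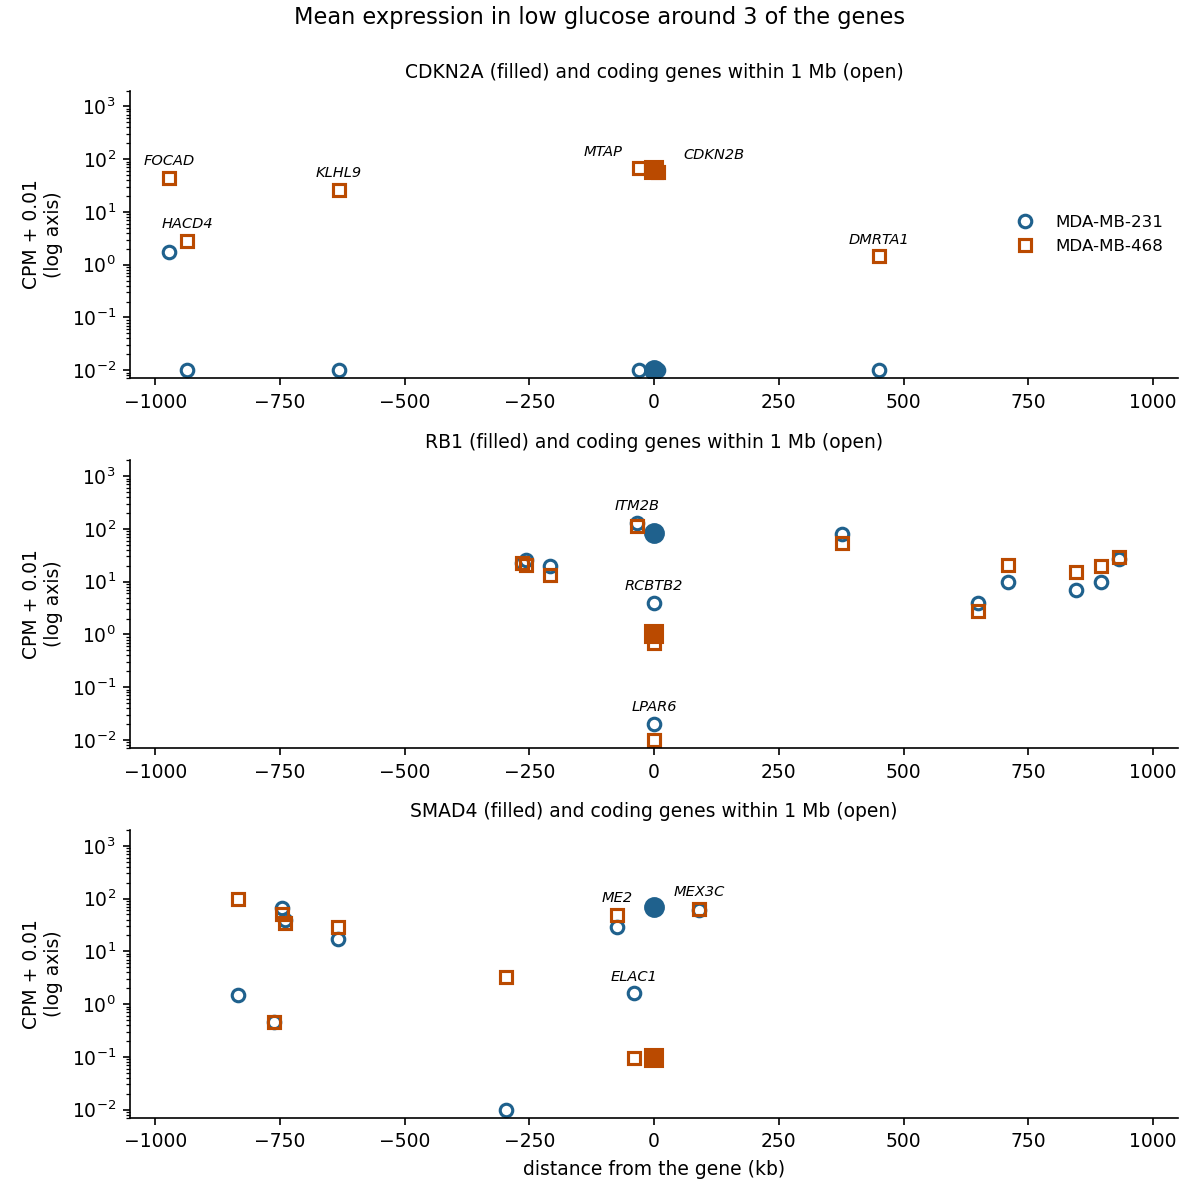
Mean expression in low glucose (y axis, CPM + 0.01 on a log axis, so that 0 plots at 0.01) of CDKN2A, RB1 and SMAD4 (filled) and of the coding genes in the table within 1 Mb (open), by distance in kb. Around CDKN2A all table genes but FOCAD are at 0 in MDA-MB-231. Of 11 genes tested around RB1, 3 are called higher and 7 lower in MDA-MB-468. Of 9 around SMAD4, 4 are called higher and 3 lower, where 85.4% of all genes were called.

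RB1 showed the opposite line pattern. In MDA-MB-231 it had 1382.6, 1358.2, 1402.5 and 1540.1 normalized counts in low glucose (1421 ± 81.5) and 1281.5, 1295.9, 1199.1 and 1262.1 in high glucose (1260 ± 42.7). Every high glucose sample was below every low glucose sample. In MDA-MB-468 it had 15.0, 12.2, 14.0 and 22.5 in low glucose (15.9 ± 4.52) and 18.5, 18.6, 18.3 and 14.3 in high glucose (17.4 ± 2.06).

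RB1 in MDA-MB-468 was low but not at 0. Each library held 11 to 25 RB1 reads, all above the floor of 3 reads. With the reads and library totals of a group pooled, the RB1 share of reads in low glucose MDA-MB-231 was 80.0 times that in MDA-MB-468 (95% exact counting interval 63.3 to 102.6), and in high glucose 68.9 times (54.3 to 88.6). Such intervals, here and below, hold counting error only and leave out the spread between samples. The residual was 1.25% of the MDA-MB-231 level in low glucose and 1.45% in high glucose. RB1 lies at chr13:48877880-49173572 (GRCh37, plus strand), and gene-level counts do not say from which exons the residual reads came.

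High glucose downregulated RB1 in MDA-MB-231, by a small amount. It fell by 0.17 on the log2 scale (SE 0.044, 95% CI -0.27 to -0.08, limma with Benjamini-Hochberg adjustment, adjusted p = 0.01397). Without high glucose replicate 3, the lowest of its group, the log2 fold change was -0.15 and the call was lost, just over the threshold (limma adjusted p = 0.05451). The other fits that left out 1 library kept the call. Over all such fits the log2 fold change was -0.19 to -0.13. In the fit on all 16 samples the call was lost as well (adjusted p = 0.4931). Within libraries, RB1 reads per SMAD4 read were 1.16, 1.15, 1.19 and 1.22 in low glucose (1.18 ± 0.0301) and 1.07, 1.12, 0.950 and 1.09 in high glucose (1.06 ± 0.0734), without overlap (two-sided exact permutation test, n = 4 a group, p = 0.0286, adjusted 0.0429). This ratio uses the same RB1 values and is no further support for the fall. In MDA-MB-468 the RB1 difference was 0.15 with a 95% CI of -0.41 to 0.72 (limma adjusted p = 0.6718), an interval that at this depth holds changes in both directions.

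Most genes around RB1 did not share its low level in MDA-MB-468, but RCBTB2, which overlaps it, was low there too. Of 12 coding neighbors in the table, none was at the floor in MDA-MB-468 while transcribed in MDA-MB-231, which 4.07% of coding genes were. ITM2B, an amyloid precursor-binding membrane protein 33.4 kb away, was at 131 CPM in MDA-MB-231 and 114 CPM in MDA-MB-468 in low glucose. RCBTB2, on the other strand, was the lowest of those tested in MDA-MB-468 relative to MDA-MB-231. In low glucose it was at 0.667 CPM in MDA-MB-468 against 3.93 CPM in MDA-MB-231 (log2 difference -2.66). In high glucose it was at 0.264 CPM, on 17 reads in all, against 4.15 CPM (log2 difference -3.94). FNDC3A, the nearest on the other side at 376.5 kb, was at 79.9 and 53.4 CPM. LPAR6, a lysophosphatidic acid receptor gene inside an RB1 intron, was at or below 0.111 CPM in every group mean. The median log2 difference of the 11 neighbors tested was -0.34, against 0.08 for all genes.

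SMAD4 had the lowest level of the 6 genes in MDA-MB-468. In MDA-MB-231 it had 1190.4, 1179.1, 1180.1 and 1263.6 normalized counts in low glucose (1203 ± 40.5) and 1200.7, 1158.1, 1262.3 and 1163.2 in high glucose (1196 ± 48.0). The groups overlapped throughout. In MDA-MB-468 the libraries held 2, 1, 0 and 3 SMAD4 reads in low glucose and 2, 6, 3 and 2 in high glucose. All but 1 of these 8 libraries were at or under the floor of 3 reads.

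The pooled share of SMAD4 reads in MDA-MB-231 was 803 times that in MDA-MB-468 in low glucose (95% exact counting interval 369 to 2190) and 348 times in high glucose (203 to 654). In MDA-MB-231 the glucose difference of SMAD4 was -0.01 on the log2 scale, with a 95% CI of -0.10 to 0.08 (limma with Benjamini-Hochberg adjustment, adjusted p = 0.9217), so a change beyond that range was not seen. In MDA-MB-468 SMAD4 was below the filter of 0.5 CPM in 2 samples, and a two-sided exact permutation test of its CPM, 0.0857 ± 0.0715 in low and 0.213 ± 0.141 in high glucose, gave p = 0.143 (n = 4 a group). Tested with no filter it was not called (limma adjusted p = 0.1609), and in the fit on all 16 samples it was (limma adjusted p = 0.03224), on 6 reads in low and 13 reads in high glucose in all.

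The neighborhood of SMAD4, at chr18:48554898-48611415 (GRCh37, plus strand), held 9 coding genes in the table, none of them at the floor in MDA-MB-468 by the rule used. The nearest, ELAC1, a tRNA-processing gene 40.4 kb away, was itself low in MDA-MB-468, at 0.0853 CPM in low and 0.334 CPM in high glucose against 1.58 and 1.5 CPM in MDA-MB-231 (log2 difference in low glucose -3.61). ME2, the mitochondrial malic enzyme at 74.3 kb, was higher in MDA-MB-468 (49.0 CPM against 28.9 CPM in low glucose). MEX3C, an RNA-binding ubiquitin ligase on the other side at 89.5 kb, was at 64.1 against 59.8 CPM, while its log2 difference of normalized counts was -0.04 and missed the threshold (limma adjusted p = 0.4407), so its direction turned with the scale. MAPK4, 296.7 kb away, had the other pattern, at 0 reads in MDA-MB-231 and 3.28 CPM in low glucose MDA-MB-468. MYO5B, 833.4 kb away, had the largest line difference of these neighbors (log2 difference 5.87). It was at 1.47 CPM in MDA-MB-231 and 97.2 CPM in MDA-MB-468 in low glucose. A read-through gene with no symbol, ENSG00000267699, overlaps SMAD4 on the same strand and shares 8.25% of its 50-base runs, and it had 5 to 20 reads in each group. Some of the few SMAD4 reads in MDA-MB-468 may be assigned by that overlap, which was not tested.

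NF2 was transcribed in both lines and was higher in MDA-MB-468. In MDA-MB-231 it had 319.4, 307.3, 300.6 and 272.5 normalized counts in low glucose (299.9 ± 19.9) and 242.3, 281.9, 264.7 and 235.9 in high glucose (256 ± 21.1). The high glucose sample at 281.9 lay above the lowest low glucose sample, at 272.5. In MDA-MB-468 it had 1419.5, 1373.6, 1428.4 and 1376.9 in low glucose (1400 ± 28.4) and 1446.6, 1439.8, 1178.9 and 1189.4 in high glucose (1314 ± 150). The high glucose samples fell into a pair above the low glucose range and a pair below it.

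The pooled share of NF2 reads in MDA-MB-468 was 5.12 times that in MDA-MB-231 in low glucose (95% exact counting interval 4.83 to 5.44) and 5.43 times in high glucose (5.08 to 5.81). These intervals hold counting error only. High glucose lowered NF2 in MDA-MB-231 by 0.23 on the log2 scale (SE 0.075, limma with Benjamini-Hochberg adjustment, adjusted p = 0.04974). That call is at the edge of the threshold and was lost in 15 of 20 alternatives, with log2 fold changes of -0.27 to -0.19 and adjusted p of 0.01852 to 0.1452, and in 6 of the 8 fits that leave out 1 library. In MDA-MB-468 the difference was -0.10 (95% CI -0.23 to 0.03, limma adjusted p = 0.1976). NF2 lies at chr22:29999545-30094587 (GRCh37, plus strand). Of the 34 tested coding genes within 1 Mb of it, 22 were called higher and 9 lower in MDA-MB-468 in low glucose. Of all genes 45.0% were called higher and 40.4% lower. The median log2 difference of the 34 was 0.57 against 0.08 for all genes. The nearest table neighbors of NF2, NIPSNAP1 at 22.2 kb and ZMAT5 at 32.4 kb, were at 69.2 and 9.96 CPM in MDA-MB-231 and at 203 and 16.4 CPM in MDA-MB-468 in low glucose. EMID1, NEFH and SEC14L4 were at the floor in MDA-MB-231 only, as were 4.88% of all coding genes.

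BRAF had the smallest line difference of the 6 genes. In MDA-MB-231 it had 235.8, 225.1, 230.2 and 250.9 normalized counts in low glucose (235 ± 11.2) and 213.1, 251.4, 232.2 and 209.2 in high glucose (226 ± 19.4). In MDA-MB-468 it had 271.2, 247.7, 286.2 and 330.5 in low glucose (284 ± 34.9) and 237.2, 255.6, 266.7 and 263.8 in high glucose (256 ± 13.3). The glucose groups overlapped in both lines. BRAF did not pass the test for glucose in MDA-MB-231 (-0.06, 95% CI -0.22 to 0.10, limma adjusted p = 0.6832) or in MDA-MB-468 (-0.14, 95% CI -0.32 to 0.03, limma adjusted p = 0.1701).

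Between lines in low glucose the pooled share of BRAF reads in MDA-MB-468 was 1.34 times that in MDA-MB-231 (95% exact counting interval 1.23 to 1.45), and in high glucose 1.20 times (1.10 to 1.31). These intervals hold counting error only and leave out the spread between samples. On the scale of normalized counts the log2 difference was 0.26 in low glucose (1.20-fold, limma adjusted p = 0.006832) and 0.18 in high glucose (1.13-fold), where it missed the threshold (limma adjusted p = 0.05283). Of the runs of 50 bases in the BRAF transcript, 7.33% occur in other genes, the pseudogene BRAFP1 among them. BRAF lies at chr7:140419127-140624729 (GRCh37, minus strand) and overlaps NDUFB2, a respiratory complex I subunit gene on the other strand. NDUFB2 was at 25.0 CPM in low glucose MDA-MB-231 and 36.2 CPM in low glucose MDA-MB-468. Its nearest other neighbors ADCK2 and MRPS33 were at 13.5 and 14.3 CPM in MDA-MB-231 and 24.9 and 32.1 CPM in MDA-MB-468. RAB19 was at the floor in MDA-MB-231 only.

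Ordered per length of the canonical transcript in low glucose, as CPM per kb, the levels in MDA-MB-231 were 17.2 for RB1, 7.91 for SMAD4, 2.91 for NF2, 2.10 for BRAF and 0 for CDKN2A and CDKN2B. In MDA-MB-468 they were 64.2 for CDKN2A, 15.0 for NF2, 14.9 for CDKN2B, 2.80 for BRAF, 0.212 for RB1 and 0.00977 for SMAD4. NF2 and CDKN2B, neighbors in that order with SDs of 0.298 and 0.280, did not differ beyond their spread, and the other neighbors with any reads stood further apart than their SDs. In high glucose CDKN2B, at 17.0 CPM per kb, stood above NF2, at 13.8.

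All 6 genes were called between lines in low glucose, where 85.4% of all 17115 genes tested were called (45.0% higher and 40.4% lower in MDA-MB-468), and 5 of 6 in high glucose, where 85.2% were. A call between these lines is therefore near background. For glucose in MDA-MB-231, 2 of the 4 tested genes were called, both lower, against 15.1% of 14884 genes tested (5.71% higher and 9.37% lower). Quantile rescaling split all calls in that line into 1027 higher and 1114 lower, against 850 and 1395 in the values as deposited. RB1 and no other of these 4 had glucose groups without overlap, against 18.7% of all genes tested. The difference in glucose response between lines could not be measured for CDKN2A and CDKN2B, which had no reads in MDA-MB-231, or for SMAD4, at 0 to 6 reads per MDA-MB-468 library. RB1, NF2 and BRAF did not pass that test (limma over 16 samples, adjusted p = 0.2212, 0.385 and 0.6321), which called 30.9% of all genes, and the RB1 estimate of 0.32 had a 95% CI of -0.08 to 0.73. Without low glucose replicate 4 of MDA-MB-468 the RB1 estimate was 0.49 and passed (limma adjusted p = 0.009015).

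**Figure D4:**
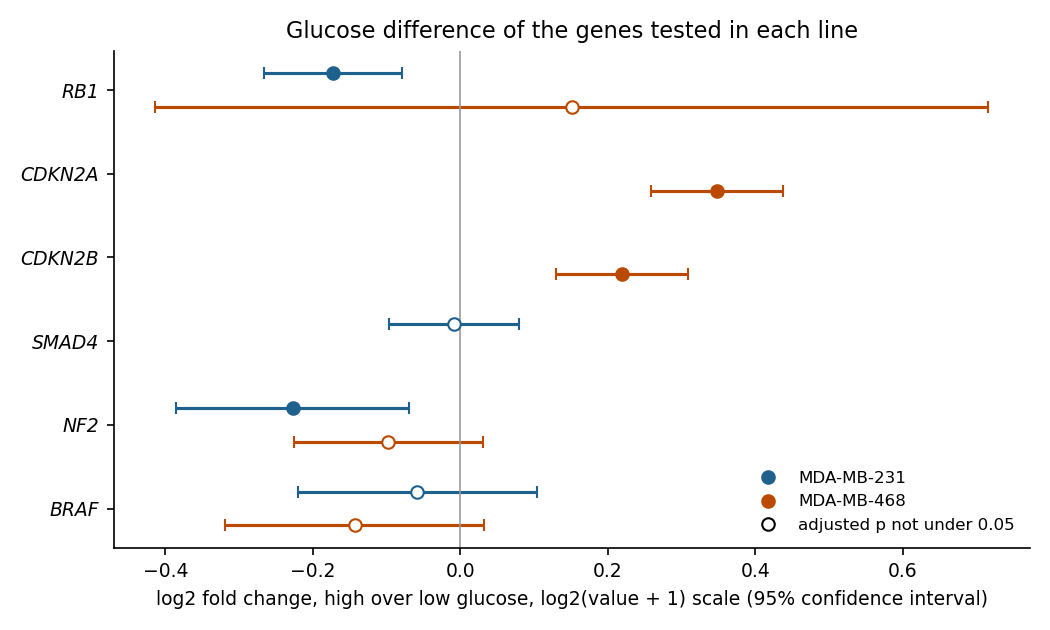
Log2 fold change of high over low glucose (x axis, log2(value + 1) scale, bars for the 95% confidence interval) of each gene tested in MDA-MB-231 (blue) and MDA-MB-468 (orange), filled where the adjusted p was under 0.05. RB1 and NF2 are lower in MDA-MB-231, and CDKN2A and CDKN2B are higher in MDA-MB-468.

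The partners of RB1 and the INK4 proteins moved in different directions in the lines. The list held 12 genes (CDKN2C, CDKN2D, CDK4, CDK6, 3 cyclins D, RBL1, RBL2 and 3 E2F genes). This list and those below were chosen with earlier results of these data known, so their counts against all genes are descriptive. In MDA-MB-231 8 of 12 fell with high glucose and 0 rose, where 9.37% of all genes fell and 5.71% rose, with a list median of -0.19 against 0.00 for all genes. The largest falls were those of the S-phase transcription factors E2F2 (-0.74 on the log2 scale, SE 0.13) and E2F1 (-0.59, SE 0.052). In MDA-MB-468 6 of 11 rose and 2 fell, where 24.9% of all genes rose and 22.7% fell, with a median of 0.16. CDKN2C, the p18INK4C inhibitor, rose by 0.63 (SE 0.063) and the cyclin CCND3 by 0.28 (SE 0.047), while CDKN2D, the p19INK4D inhibitor, fell by 1.08 (SE 0.071) and the cyclin CCND1 fell by 0.29 (SE 0.041). The difference in response between lines was called for 8 of the 12, with 7 of them higher in MDA-MB-468, where 30.9% of all genes were called. Between lines in low glucose, E2F2 was the most raised in MDA-MB-468 (log2 difference 3.54) and CCND2 the most lowered (-7.89).

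Downstream of ARF, 3 of 7 genes of the MDM2 list fell and 1 rose in each line. The share of all genes called was 15.1% for MDA-MB-231 but 47.6% for MDA-MB-468, where 4 called of 7 is near the background. In MDA-MB-231 the stress gene GADD45A fell by 0.21 and CDKN1A, the p21 inhibitor of cyclin-dependent kinases, fell by 0.19, while the apoptosis gene BBC3 rose by 0.28, a call lost in 5 alternatives. In MDA-MB-468, the line that transcribed CDKN2A, CDKN1A rose by 0.83 (SE 0.063, limma adjusted p = 1.97e-08), while MDM2, the ligase that ARF inhibits, and GADD45A each fell by 0.35. In low glucose CDKN1A was lower in MDA-MB-468 than in MDA-MB-231 (-2.68) and the sestrin SESN1 higher (1.42).

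**Figure D5:**
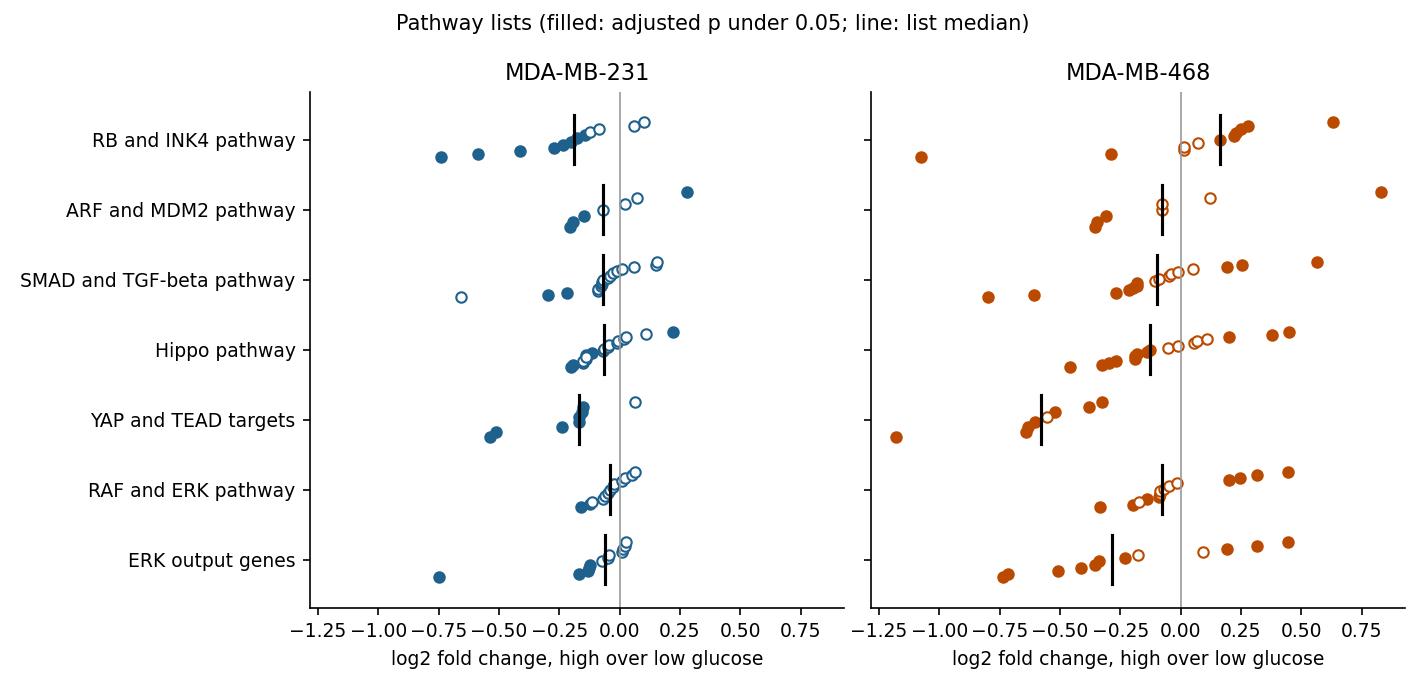
Log2 fold change of high over low glucose (x axis) of the genes of 7 pathway lists (rows) in MDA-MB-231 (left) and MDA-MB-468 (right), with filled points where the adjusted p was under 0.05 and a line at each list's median. The RB and INK4 list is mostly below 0 in MDA-MB-231 and mostly above 0 in MDA-MB-468, and the YAP and TEAD targets are below 0 in both lines, 1 gene in MDA-MB-231 excepted.

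Of the 17 SMAD and TGF-beta genes, 2 fell in MDA-MB-231 (9.37% of all genes fell), the ligand TGFB2 by 0.30 (SE 0.042) and the receptor-activated SMAD3 by 0.22 (SE 0.036). In MDA-MB-468, the line with almost no SMAD4 reads, 7 of 16 fell and 3 rose. TGFB2 fell by 0.80 (SE 0.045) and the inhibitory SMAD6 fell by 0.61 (SE 0.097), while the ligand TGFB1 rose by 0.56 (SE 0.066) and the receptor ACVR1B by 0.25 (SE 0.068). Of all genes 22.7% fell and 24.9% rose, and across the other settings 5 to 8 of the list fell. Between lines in low glucose, SMAD1 was the most raised in MDA-MB-468 (2.47) and TGFB1 the most lowered (-3.19).

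Around merlin, 6 of 18 Hippo genes fell and 1 rose in MDA-MB-231, and 9 of 17 fell and 3 rose in MDA-MB-468, where 9.37% and 22.7% of all genes fell. Across the other settings 3 to 6 fell in MDA-MB-231, with 3 under quantile rescaling, and 7 to 9 fell in MDA-MB-468. These counts are descriptive, since the list was chosen with earlier results known. In MDA-MB-231 FRMD6, a relative of merlin, fell by 0.20 and the transcription factor TEAD1 fell by 0.19, while the scaffold SAV1 rose by 0.22. In MDA-MB-468 TEAD1 fell by 0.46 and the kinase LATS2 fell by 0.32, while LATS1 rose by 0.45 and TEAD2 by 0.38. In low glucose WWC1 was the most raised gene of the list in MDA-MB-468 (3.18) and WWC2 the most lowered (-9.93). Of the merlin relatives, ezrin (EZR) fell by 0.11 and moesin (MSN) fell by 0.08 in MDA-MB-231, and EZR rose by 0.11 and radixin (RDX) by 0.09 in MDA-MB-468. Each of these 4 small calls was lost in 1 or more alternatives. MSN was lower in MDA-MB-468 by a log2 difference of -1.98, and RDX was higher by 0.42.

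The target genes of YAP and TEAD fell in both lines, 7 of 8 in each, and none rose. The share of all genes that fell was 9.37% for MDA-MB-231 and 22.7% for MDA-MB-468. The list was chosen with earlier results of these data known, so its counts are descriptive. In MDA-MB-231 CCN2 fell by 0.54 (SE 0.027) and CCN1 fell by 0.51 (SE 0.026). In MDA-MB-468 ANKRD1 fell by 1.18 (SE 0.11) and CCN2 fell by 0.64 (SE 0.044). Across the other settings the number that fell was 4 to 7 in MDA-MB-231, with 4 in the fit on all 16 samples, and 7 to 8 in MDA-MB-468. In low glucose 7 of the 8 were lower in MDA-MB-468, where 40.4% of all genes were lower and 45.0% higher. AMOTL2 alone was higher, by 0.55. AXL, also one of the MDA-MB-231 markers, was at a log2 difference of -9.49.

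Around BRAF, 2 of 13 RAS-RAF-ERK genes fell in MDA-MB-231, the kinase MAP2K1 by 0.16 and the RAS pathway inhibitor SPRED2 by 0.12, a call lost in 4 alternatives. Of all genes 9.37% fell in that line. In MDA-MB-468 4 of 14 rose and 4 fell, near the 24.9% and 22.7% of all genes. SPRED1 rose by 0.44 and SPRED2 by 0.32, while NF1, the RAS GTPase activator, fell by 0.33 and NRAS fell by 0.20. The genes induced by ERK signaling, a list also chosen with earlier results known, separated the lines in low glucose. All 12 were lower in MDA-MB-468, where 40.4% of all genes were lower. The median log2 difference was -4.06 against 0.08 for all genes, with FOSL1 at -7.15. In high glucose 11 of 12 were lower, where 6949 of all 17115 genes tested were lower and 85.2% were called in either direction. EGR1 was the gene not called there (log2 difference 0.07, limma adjusted p = 0.3975). With high glucose 5 of 12 fell in MDA-MB-231, the early response gene EGR1 by 0.75 and FOSL1 by 0.17, the latter lost in the fit on all 16 samples. The number that fell there was 1 to 6 across the other settings, with 2 under quantile rescaling and 1 in the fit on all 16 samples, and 9.37% of all genes fell. In MDA-MB-468 7 of 12 fell and 3 rose, against 22.7% and 24.9% of all genes, with the receptor kinase EPHA2 falling by 0.51 and the phosphatase DUSP6 by 0.41. SPRED1 and SPRED2 are in both lists and are among the 3 that rose. Of the RAF and ERK genes, KSR2 was the most raised in MDA-MB-468 in low glucose (6.96) and SPRED1 the most lowered (-2.62).

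Of 5 other known drivers (EGFR, NF1, PIK3CA, MYC and BRCA1), 3 fell and 0 rose in MDA-MB-231, and 4 fell and 0 rose in MDA-MB-468, where 9.37% and 22.7% of all genes fell. The number that fell in MDA-MB-468 was 2 to 5 across the other settings, with 2 under the correction for transcript length. Under that correction EGFR, one of the 4 at -0.08, stood at 0.03 (limma adjusted p = 0.3176), and its call in MDA-MB-231 was lost as well (limma adjusted p = 0.06709). BRCA1, the homologous recombination gene, fell in both, by 0.32 (SE 0.068) in MDA-MB-231 and by 0.34 (SE 0.055) in MDA-MB-468. MYC fell by 0.23 in MDA-MB-231. In low glucose EGFR was the most raised of them in MDA-MB-468 (log2 difference 2.78) and PIK3CA the most lowered (-1.54). None of the 5 was near 0 in either line, and the lowest group mean was BRCA1 at 278 ± 14.8 normalized counts in high glucose MDA-MB-231.

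The genes whose levels followed each member most closely over the 16 samples are given as a description, since the samples form 2 lines and likeness mostly reads the line difference. Pearson's r on log2(value + 1) was 0.999 between RB1 and RAB34, with FRMD5 next, and 0.997 between SMAD4 and TMEM92, with IFITM2 next. CDKN2A was most like TMPRSS13 and FXYD3, CDKN2B most like LAD1 and FOXI1, and NF2 most like POLR1E and TRPS1 (r = 0.998 and 0.996). An r over 0.99 was reached by 1219, 587, 1386, 1403 and 644 of the 17114 other genes for RB1, SMAD4, CDKN2A, CDKN2B and NF2, and by 0 for BRAF, whose closest were SMTNL1 (0.873) and CCNT2 (0.867).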

How the data were processed

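Per the labels, RNA of 16 samples was sequenced after library preparation by Illumina protocols. The authors trimmed reads, aligned them with TopHat to hg19, counted reads per gene with an Ensembl annotation and tested with DESeq2. The paper also names edgeR, for normalizing counts. The submitters' processing notes name edgeR and, instead of hg19, hg38, so the build is not settled. The program that counted is not given in the sources used here. The deposited values are a normalized signal, the read count of each gene divided by 1 size factor per library. Whole reads were recovered from 100% of values (within 0.01 of a read). Libraries held 14094597 to 24425916 reads, so 3 reads, the floor used, are 0.123 to 0.213 CPM.

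Groups came from the sample labels. The members and lists were chosen with earlier results of these data known. Genes with at least 0.5 CPM in 2 samples of a fit were tested with limma 3.58.1 (R 4.3.3, lmFit and eBayes with trend) on log2(value + 1), two-sided, with Benjamini-Hochberg adjustment over all genes at 0.05. Fold changes on that scale understate changes of low genes. Glucose was tested within each line, and the lines and the difference in response in a 4-group fit. Named were the 6 members, per list the 2 largest called rises and falls with glucose in each line and the largest difference each way between lines in low glucose at 5 CPM or more, neighbors within 1 Mb that were at the floor in 1 line only with the nearest on each side, and the 2 most similar genes. Alternatives were pseudocounts of 0.5 and 5, no filter and a filter of 1 CPM in 4 samples, 2 rescalings, edgeR 4.0.16, DESeq2 1.42.0, a replicate block, a correction for transcript length, a fit on all 16 samples and leaving out each library. The pipeline was tested on simulated data. Promoter sequences are from RefSeq, and shared runs were counted in GENCODE transcripts on GRCh37. Some genes of the lists are not reported here and were left out of their counts. Symbols were found for 16633 of the 18332 genes, and transcript lengths for 17418.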

Additional observations from a re-analysis of the deposited data

Results flagged for a closer look

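Of 220 groups of 4 samples with any spread, over the 6 genes and 51 pathway and marker genes named in the text, 14 held 1 sample whose gap to the next took up a larger share of the group's range than Dixon's 95% critical value, and chance gives such a gap in about 1 group in 20. Values are normalized read counts. Among the 6 genes, RB1 in high glucose MDA-MB-468 had 1 low sample at 14.3 (replicate 4, 17 reads), and SMAD4 in low glucose MDA-MB-231 had 1 high sample at 1263.6 (replicate 4). In high glucose MDA-MB-468 the others were high samples of MYC (1753), NF1 (1535) and EGFR (62397). In MDA-MB-231 they were high samples of E2F1 at 895 and RDX at 1656 and a low sample of CCN1 at 10675 in low glucose. In high glucose MDA-MB-231 they were a low sample of FRMD6 at 5125 and high samples of WWC2 at 1256, CCN2 at 6408 and ANKRD1 at 6379. In low glucose MDA-MB-468 WWC2 had 1 sample at 1.75 with the other 3 at 0, and NRAS had 1 high sample at 4121.

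The glucose response differed between lines for 30 of the 51 named pathway and marker genes (limma interaction over 16 samples, log2 response in MDA-MB-468 minus that in MDA-MB-231, Benjamini-Hochberg adjusted p of 1.933e-09 to 0.04889), where 30.9% of all genes were called. The 51 were named in part for large glucose changes in a line, which favors such a call, so the count says nothing of the lists, and other genes of the lists that were called are not given. RB1, NF2 and BRAF did not pass the test, and for CDKN2A, CDKN2B and SMAD4 the difference could not be measured, with 0 to 6 reads per library in 1 line. Among the genes named from the RB and INK4 list the differences were 1.04 for CDKN2C, 0.99 for E2F2, 0.82 for E2F1, 0.42 for CCND3 and -0.84 for CDKN2D. In the MDM2 list they were 1.02 for CDKN1A, -0.59 for BBC3 and -0.21 for MDM2. In the TGF-beta list they were 0.51 for TGFB1, -0.50 for TGFB2 and -0.54 for SMAD6. In the Hippo list and among merlin relatives they were 0.39 for TEAD2, 0.34 for LATS1, 0.31 for FRMD6, 0.23 for EZR, 0.17 for RDX, -0.13 for WWC1, -0.24 for SAV1 and -0.26 for TEAD1. Among the YAP and TEAD targets named they were -1.01 for ANKRD1 and -0.45 for AMOTL2. In the RAF and ERK lists they were 0.52 for EGR1, 0.44 for SPRED1, 0.44 for SPRED2, -0.25 for NRAS, -0.38 for EPHA2 and -0.44 for DUSP6. For the other drivers and markers they were 0.16 for MYC, -0.22 for NF1 and 0.13 for CD44.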

How the results depend on the processing

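Of 666 comparisons of a gene's value with an alternative, 633 kept direction and side of the threshold, 18 lost a call, 9 gained one and 6 changed sign. In MDA-MB-231, where 2 of the genes were called for glucose, pseudocount 5, no filter, median-of-ratios rescaling, quantile rescaling, DESeq2, the correction for transcript length and that correction with the block each left 1, RB1, and the fit on all 16 samples, a shared estimate of spread, left 0. Leaving out 1 library gave 0 to 2 calls. The changes of sign were all of the SMAD4 glucose difference in MDA-MB-231, which was 0.0063 with quantile rescaling, 0.043 with the correction for transcript length, alone or with the block, and -0.035 to 0.015 without 1 library. For the difference in response between lines, called for 0 genes (limma, with 1 at an unadjusted p under 0.05, and 0 by edgeR and DESeq2), pseudocount 5 gave 1 (CDKN2A, at 0 reads in MDA-MB-231, so that its response in MDA-MB-468 is the whole estimate), and leaving out 1 library gave 0 to 2, with RB1 and SMAD4 called without low glucose replicate 4 of MDA-MB-468. The cause was not tested. In MDA-MB-468 2 of the genes were called in each alternative, CDKN2A and CDKN2B, save that the fit on all 16 samples called SMAD4 in place of CDKN2B. BRAF in high glucose was called between lines in 6 of 27 alternatives. The length correction with the block was chosen after seeing the data.

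With the replicate number as a block, 1 gene, RB1, was called for glucose in MDA-MB-231, and all calls there went from 2245 to 1624. Deviations of same-numbered samples correlated at -0.04 to -0.01 in MDA-MB-231 and 0.02 to 0.03 in MDA-MB-468. Such values show little shared variation by number, but not how the samples were handled. The block changed no other call of the 6 genes. Depth limits RB1 and SMAD4 in MDA-MB-468, at 11 to 25 and 0 to 6 reads per library.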
